A study of Mus musculus with 18 samples.

Results

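The data described here are the interaction of drug and time in detached mouse retinas over the first day after injection. Detachment was produced in Balb/cJ mice, an albino strain, by injecting 1 uL of fluid under the retina. The fluid was saline with 10 uM INS37217 or saline alone, so both treatments carried the injection and the detachment. Of the 18 Affymetrix arrays of the series, 12 were used: 3 of INS37217 at 24 h, 3 of saline at 24 h, 3 of INS37217 at 2 h and 3 of saline at 2 h. Each array measured 1 pool of more than 5 retinas, and the design text calls the 3 pools of a group biological replicates. The interaction was the INS37217 minus saline difference at 24 h minus the same difference at 2 h, which equals the 24 h minus 2 h difference under INS37217 less that under saline. It was estimated for all 22626 probe sets that are not array controls, with the replicate number as a block. All values are log2, so an interaction of 1 means that the ratio of INS37217 to saline was larger by 1 log2 unit at 24 h than at 2 h.

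INS37217, also called denufosol, is a stable agonist of P2Y2, a receptor for extracellular nucleotides. In the pigment epithelium this receptor acts on calcium and chloride transport and drives fluid out of the space under the retina, which has hastened reattachment in animal models. Injury of the retina is followed within hours by transcription of immediate early genes, and later by chemokines, entry of white blood cells and reaction of Mueller glia. Interferon acts through STAT and IRF factors that bind the interferon-stimulated response element, a short motif in the promoters of antiviral genes. The interaction asks which of these responses had a different time course when the drug was present. It does not ask whether the drug had an effect common to both times.

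An interaction passed the threshold, an adjusted p under 0.05 in limma, for 264 of 22626 probe sets (1.17%). It was positive for 100 probe sets of 81 genes (0.442%) and negative for 164 probe sets of 139 genes (0.725%). With all arrays set to equal medians the same test gave 121 positive and 118 negative probe sets. Positive interactions ranged from 0.52 to 2.76 with a median of 0.85, and negative ones from -1.35 to -0.53 with a median of -0.73, while the median of all probe sets was -0.01. The last probe set to pass had an adjusted p of 0.0496 and the next one 0.0503.

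The positive and negative interactions had their larger part at different times. Of the 100 positive probe sets, 67 had the larger INS37217 minus saline difference at 24 h and 33 at 2 h, with medians of 0.66 at 24 h and -0.21 at 2 h. Of the 164 negative ones, 12 had the larger part at 24 h and 152 at 2 h, with medians of -0.15 at 24 h and 0.59 at 2 h. For 47.7% of all probe sets the larger part was at 2 h. Under INS37217 the positive probe sets were a median of 1.07 higher at 24 h than at 2 h, against 0.16 under saline. The negative probe sets stood 0.08 higher at 24 h than at 2 h under INS37217, against 0.87 under saline. The arrays of INS37217 and saline did not overlap at 24 h for 63 of the positive and 17 of the negative probe sets (7.48% of all probe sets), nor at 2 h for 39 of the positive and 103 of the negative ones (7.69% of all). These probe sets were chosen by an interaction from the same arrays. Separated arrays and unequal time changes are thus partly fixed by the choice and are not a separate result.

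**Figure D1:**
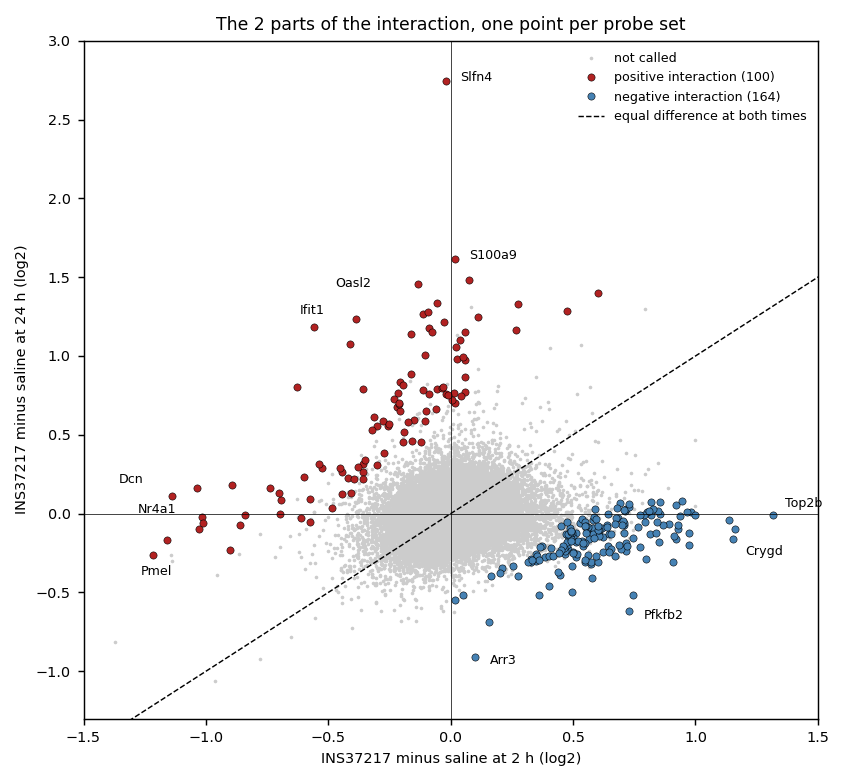
Each point is a probe set, with the INS37217 minus saline difference at 24 h (log2) on the vertical and at 2 h (log2) on the horizontal axis. The 100 probe sets with a positive interaction (red) lie above the dashed line of equal differences, in a column that reaches 2.74 at 24 h for Slfn4 and in a row that reaches -1.22 at 2 h for Pmel. The 164 with a negative interaction (blue) lie below it, mostly near 0 at 24 h, and grey points did not pass.

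The block decided most calls. Without it 8 probe sets passed (592 at an unadjusted p under 0.05, against 2182, or 9.64%, with it): 6 positive ones, including Slfn4, Ifit1, Rsad2, Oasl2 and Iigp1, and 2 negative ones, including Cryga. Within a group the arrays of replicate 1 correlated with the others at 0.9755 to 0.981, while replicates 2 and 3 correlated with each other at 0.9944 to 0.9966. Leaving out all 4 arrays of replicate 1 left 204 probe sets, of which 148 were among the 264. Without replicate 2 there were 5, and without replicate 3 there were 17. Slfn4, Rsad2, Oasl2 and B2m passed in all 3 of these fits. Leaving out 1 array left 152 probe sets without INS37217 24 h replicate 2, 118 without INS37217 24 h replicate 3, 134 without saline 24 h replicate 2 and 163 without saline 24 h replicate 3. At 2 h it left 159, 170 and 168 without INS37217 replicates 1, 2 and 3, and 130 and 163 without saline replicates 2 and 3. Unless stated, each gene whose interaction is printed below as past the threshold also passed in all 12 fits that left out 1 array. This holds for 1 probe set per gene, and calls at its other probe sets were not followed through these fits.

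Groups followed the array titles, because the source name of 5 of the 6 INS37217 arrays speaks of saline only. Markers of retina were high on every array: the mean of 24 rod photoreceptor genes was 10.86 to 10.92 at 24 h and 11.34 to 11.49 at 2 h with INS37217, against 10.95 to 11.00 at 24 h and 11.27 to 11.45 at 2 h with saline. The saline 2 h arrays stood apart in the control transcript for beta-actin. Its 3′ minus 5′ signal, which is larger where RNA is shorter or was copied less far, was 0.61, 0.65 and 0.61 with INS37217 and 0.69, 0.62 and 0.52 with saline at 24 h. At 2 h it was 0.76, 0.78 and 0.70 with INS37217 and 0.93, 1.10 and 1.08 with saline. The difference of these differences was 0.30 for beta-actin, 0.07 for Gapdh, -0.09 for pyruvate carboxylase and -0.15 for the transferrin receptor.

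**Figure D2:**
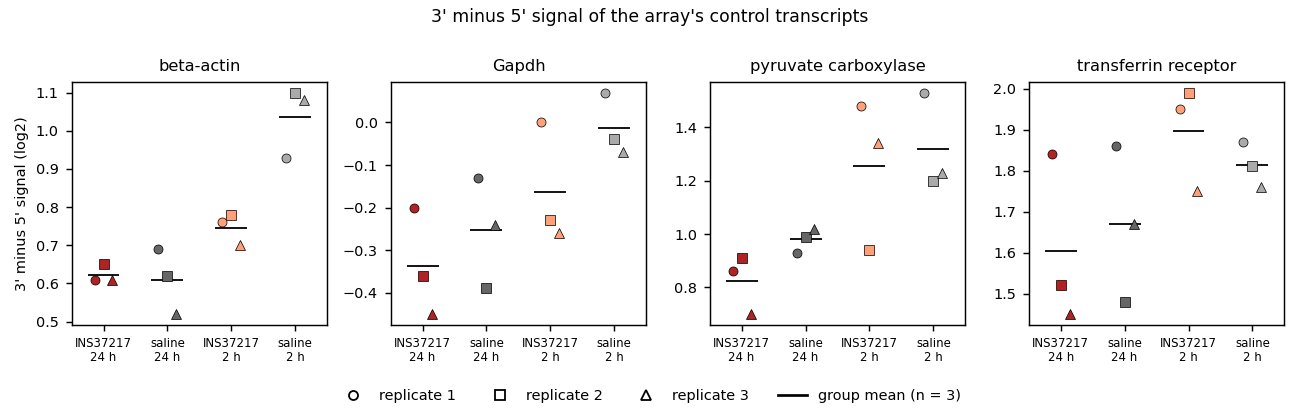
The 3′ minus 5′ signal (log2) of 4 control transcripts is plotted for each of the 12 arrays by group, with a marker for each replicate number and a line at the group mean (n = 3). The 3 saline 2 h arrays lie at 0.93 to 1.10 for beta-actin, above the other 9 arrays.

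The 3 largest positive interactions were those of interferon-induced genes. Promoter sequences of 6 such genes with an interaction are shown, and the interferon-stimulated response element was searched for on both strands. It is spelled here as GAAA, any 2 bases and GAAA. Each window runs 5′ to 3′ on the gene's strand from 250 bases before to 50 bases after the RefSeq start on GRCm38.p6, with matches to the motif or its reverse complement in capitals. Ifit1 lies at chr19:34640639-34640938 (plus strand), Ifit3 at chr19:34583279-34583578 (plus), Rsad2 at chr12:26456403-26456702 (minus), B2m at chr2:122147437-122147736 (plus), Gbp3 at chr3:142559794-142560093 (plus) and Slfn4 at chr11:83174936-83175235 (plus).
Ifit1: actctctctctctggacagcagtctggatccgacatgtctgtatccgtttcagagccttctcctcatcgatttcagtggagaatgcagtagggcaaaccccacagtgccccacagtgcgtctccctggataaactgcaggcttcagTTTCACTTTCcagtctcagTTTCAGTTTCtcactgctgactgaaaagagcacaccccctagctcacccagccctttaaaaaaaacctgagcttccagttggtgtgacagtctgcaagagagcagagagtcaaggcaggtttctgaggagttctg
Ifit3: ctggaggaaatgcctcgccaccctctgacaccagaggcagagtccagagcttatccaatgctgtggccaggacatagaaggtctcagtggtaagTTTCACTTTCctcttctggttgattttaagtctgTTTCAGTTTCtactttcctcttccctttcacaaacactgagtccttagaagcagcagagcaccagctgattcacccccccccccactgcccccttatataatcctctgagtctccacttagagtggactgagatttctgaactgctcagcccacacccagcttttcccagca
Rsad2: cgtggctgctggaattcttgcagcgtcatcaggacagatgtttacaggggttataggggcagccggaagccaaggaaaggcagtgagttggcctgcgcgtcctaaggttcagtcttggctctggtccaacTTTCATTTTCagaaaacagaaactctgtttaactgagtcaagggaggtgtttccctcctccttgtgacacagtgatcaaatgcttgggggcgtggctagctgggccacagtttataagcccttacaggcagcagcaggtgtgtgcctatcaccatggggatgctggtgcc
B2m: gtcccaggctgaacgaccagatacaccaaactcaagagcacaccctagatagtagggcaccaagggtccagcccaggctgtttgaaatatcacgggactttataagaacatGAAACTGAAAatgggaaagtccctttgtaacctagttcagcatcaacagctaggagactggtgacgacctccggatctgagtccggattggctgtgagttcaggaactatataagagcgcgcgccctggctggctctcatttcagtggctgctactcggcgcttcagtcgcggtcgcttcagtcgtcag
Gbp3: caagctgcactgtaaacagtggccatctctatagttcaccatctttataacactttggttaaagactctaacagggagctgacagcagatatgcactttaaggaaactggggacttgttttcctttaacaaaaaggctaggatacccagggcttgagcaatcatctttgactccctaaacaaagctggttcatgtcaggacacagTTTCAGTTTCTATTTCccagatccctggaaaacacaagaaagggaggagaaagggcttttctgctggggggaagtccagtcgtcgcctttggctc
Slfn4: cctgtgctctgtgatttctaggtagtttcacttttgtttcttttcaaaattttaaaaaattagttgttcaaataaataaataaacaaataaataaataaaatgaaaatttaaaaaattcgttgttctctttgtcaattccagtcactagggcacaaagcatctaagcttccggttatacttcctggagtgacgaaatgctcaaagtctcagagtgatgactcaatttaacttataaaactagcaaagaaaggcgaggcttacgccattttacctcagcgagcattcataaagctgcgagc
The Ifit1 and Ifit3 windows hold 2 matches each, and those of Gbp3 overlap each other. The Rsad2 and B2m windows hold 1 match each, and the Slfn4 window holds none. The motif was present in 943 of 27025 first windows of RefSeq genes (3.49%). Of the matched genes it was present in 12 of 65 with a positive interaction (18.5%) and in 3 of 123 with a negative one (2.44%). Among measured interferon effectors 10 of 18 matched genes had it, among interferon-inducible GTPases 6 of 7, and among immediate early genes 2 of 29. Of the members with an interaction, 4 of 8 effectors, 3 of 3 GTPases and 0 of 9 immediate early genes had it. The effectors with an interaction thus did not have it more often than all measured ones. A match describes the letters of the window and does not show that a factor binds there.

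Of 25 antiviral interferon effectors measured, 10 had a positive interaction and none a negative one, where 0.549% of the 12393 genes had a positive one by 1 probe set each. All 25 lay above 0, with a median interaction of 0.60 beside -0.01 for all genes. The list's median INS37217 minus saline difference was 0.63 at 24 h and -0.01 at 2 h. Its mean level was 7.46, 7.54 and 7.60 with INS37217 and 6.90, 6.90 and 6.82 with saline at 24 h, and 6.03, 5.88 and 5.95 with INS37217 and 6.14, 5.94 and 5.93 with saline at 2 h. The INS37217 24 h arrays were thus the highest, the saline 24 h arrays were between, and the 2 h arrays of both treatments overlapped. The 10 genes were Ifit1, Rsad2, Oasl2, Ifi44l, Ifit3, Usp18, Ifitm3, Parp14, Ifit2 and Isg20. Oasl1 had an interaction of 0.75 just outside the threshold (adjusted p = 0.0503). Between 8 and 10 of the list passed when 1 array was left out, and 3 passed without the block.

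Slfn4, a Schlafen gene of myeloid cells that interferon induces, had the largest interaction of all. It stood at 7.65, 7.95 and 7.85 with INS37217 and at 5.11, 5.08 and 5.03 with saline at 24 h. At 2 h its values were 4.08, 3.97 and 3.94 with INS37217 and 4.11, 3.96 and 3.98 with saline. All 3 INS37217 24 h arrays were far above the rest, the saline 24 h arrays were above both 2 h groups, and the 2 h groups overlapped. The interaction was 2.76 (SE 0.14, adjusted p = 3.06e-08 in limma). It was 2.54 with all low values raised to the 25th percentile of 5.28, a level that the saline 24 h arrays and both 2 h groups were below. Of 5 Schlafen genes measured 2 passed, both positive, against 0.549% of all genes. Slfn1 had an interaction of 0.78 (adjusted p = 0.0318) that passed in 4 of the 12 fits without 1 array, those without INS37217 24 h replicate 2, saline 24 h replicate 1, INS37217 2 h replicate 3 and saline 2 h replicate 1.

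Ifit1, which binds viral RNA, had array values of 8.42, 8.69 and 8.86 with INS37217 and 7.53, 7.46 and 7.42 with saline at 24 h. Its 2 h values were 5.66, 5.31 and 5.69 with INS37217 and 6.35, 6.17 and 5.81 with saline. The groups did not overlap at either time, and INS37217 was the higher one at 24 h and the lower one at 2 h. The interaction was 1.74 (SE 0.20, adjusted p = 0.000959), with parts of 1.19 at 24 h and -0.56 at 2 h. Rsad2, the antiviral enzyme viperin, was at 8.0, 8.30 and 8.51 with INS37217 and 7.07, 7.01 and 7.02 with saline at 24 h. On the 2 h arrays it was at 6.80, 6.61 and 6.83 with INS37217 and 7.25, 6.98 and 7.17 with saline. Its groups too were apart in opposite directions at the 2 times, and its saline arrays at 24 h lay within the range of those at 2 h. Rsad2 had an interaction of 1.62 (SE 0.16, adjusted p = 0.000214), and its 2 other probe sets had 0.96 and 0.75, both past the threshold.

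Oasl2, a relative of the enzymes that make the activator of RNase L, reached 8.49, 8.31 and 8.05 with INS37217 and 7.07, 6.77 and 6.64 with saline at 24 h. Its arrays at 2 h read 4.61, 4.70 and 4.36 with INS37217 and 4.73, 4.72 and 4.62 with saline. It was higher at 24 h than at 2 h under both treatments, by 3.73 with INS37217 and 2.14 with saline, and the 2 h groups overlapped. The interaction was 1.59 (SE 0.14, adjusted p = 4.87e-05). Ifit3, a partner of Ifit1, had an interaction of 1.27 and Ifi44l, another interferon-induced gene, one of 1.37. Trim30a, a ubiquitin ligase family member of myeloid cells, had 1.23 at one probe set and 0.53 at its brighter one (adjusted p = 0.203). Plac8, expressed in myeloid cells, had 1.30.

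The interferon-inducible GTPases coat and break the vacuoles of intracellular microbes. They had 4 positive interactions among 8 measured genes, against 0.549% of all genes. All 8 lay above 0 with a median of 0.86. Iigp1 stood at 6.66, 7.09 and 6.91 with INS37217 and 6.10, 6.04 and 6.11 with saline at 24 h. At 2 h it stood at 5.49, 5.36 and 5.33 with INS37217 and 6.02, 6.25 and 5.79 with saline. The treatments were apart at both times, and saline differed by only 0.06 between the times. Its interaction was 1.43 (SE 0.17, adjusted p = 0.000959). Gbp3 had an interaction of 0.96 and Gbp7 one of 0.91, the Gbp7 call being kept in 2 of the 12 fits without 1 array, those without replicate 1 of INS37217 at 24 h or at 2 h. Irgm2 was the other member to pass, and Irgm1 had 1.01 and did not (adjusted p = 0.062). Without the block 1 member passed, and 2 members passed without INS37217 24 h replicate 2 or 3, saline 24 h replicate 1 or 2, INS37217 2 h replicate 2 or 3, or saline 2 h replicate 2 or 3.

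Antigen presentation genes lay on the same side with fewer calls. All 11 MHC class I and antigen processing genes were above 0, with a median of 0.36. By its brightest probe set 1 passed, against 0.549% of all genes. That gene was B2m, the light chain of every class I molecule, at 10.88, 11.22 and 11.23 with INS37217 and 9.84, 10.02 and 10.25 with saline at 24 h. Its 2 h values were 8.50, 8.87 and 8.51 with INS37217 and 8.68, 9.10 and 9.33 with saline. The 24 h groups were apart and the 2 h groups overlapped. B2m had an interaction of 1.48 (SE 0.16, adjusted p = 0.000658) and of 1.01 at its second probe set, which also passed. H2-K1, a class I heavy chain, had 0.55 at its brightest probe set and did not pass there (adjusted p = 0.0714). Of its 3 other probe sets, 1 passed at 0.68 (adjusted p = 0.043), a call not followed through the fits without 1 array, and the lowest stood at 0.12. Of 6 MHC class II genes none passed, with a median of 0.38 and 4 at an unadjusted p under 0.05, against 935 of all 12393 genes.

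Several genes of white cells and of the acute inflammatory response also had positive interactions with their larger part at 24 h. S100a9, a subunit of the calprotectin dimer of neutrophils, reached 8.25, 9.29 and 9.33 with INS37217 and 6.80, 7.44 and 7.78 with saline at 24 h. It was at 6.0, 5.88 and 6.21 with INS37217 and 5.92, 6.12 and 6.0 with saline at 2 h. Replicate 1 was the lowest array under both treatments at 24 h. The treatments did not overlap at 24 h and did at 2 h. S100a9 had an interaction of 1.60 (SE 0.25, adjusted p = 0.00437). Its partner S100a8 had 1.41 (adjusted p = 0.0253) and passed in 5 of the 12 fits without 1 array, those without INS37217 24 h replicate 1, saline 24 h replicate 3, INS37217 2 h replicate 1 or saline 2 h replicate 2 or 3.

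Of 17 neutrophil markers measured S100a8 and S100a9 passed, where 0.549% of all genes had a positive interaction. Of the list 13 lay above 0 and 4 below, and its median was 0.26. The mean of the neutrophil list was 6.69, 6.51 and 6.51 with INS37217 and 6.23, 6.12 and 5.96 with saline at 24 h, against 5.79 to 6.08 with INS37217 and 5.67 to 6.09 with saline at 2 h. Of 28 microglia and macrophage markers 3 passed, all positive, against 0.549% of all genes. The median of that list was 0.25, and its mean was 6.48 to 6.56 with INS37217 and 6.14 to 6.23 with saline at 24 h. The 3 were Ptprc, the pan-leukocyte CD45, at 1.04, Ms4a6d at 1.04 and Pf4 at 0.85, and Pf4 had its larger part at 2 h (0.32 at 24 h and -0.54 at 2 h). Ptprc passed in 4 of the 12 fits without 1 array, those without saline 24 h replicate 2 or any INS37217 2 h array. Ms4a6d passed in 5, those without replicate 1 of INS37217 at 24 h or 2 h, saline 24 h replicate 1 or 3, or saline 2 h replicate 3. Dimmer probe sets of Ms4a6d had 0.49 and -0.15 and did not pass. Pf4 passed in 7, being lost without replicate 3 of INS37217 or saline at 24 h, INS37217 2 h replicate 1 or 3, or saline 2 h replicate 1. More cells of a type and more RNA per cell cannot be told apart in pooled retinas. Both marker lists moved with the interferon genes, and their part in that result was not tested.

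Mmp3, the matrix protease stromelysin, was at 6.49, 7.29 and 7.08 with INS37217 and 5.23, 6.05 and 5.78 with saline at 24 h. At 2 h it was at 4.40, 4.33 and 4.30 with INS37217 and 4.64, 4.37 and 4.36 with saline. The 24 h groups were apart, the 2 h groups overlapped, and the interaction was 1.38 (SE 0.24, adjusted p = 0.00962). Chil1, a chitinase-like protein of reactive astrocytes and macrophages, had 9.87, 10.23 and 10.41 with INS37217 and 8.79, 9.10 and 9.12 with saline at 24 h. Its values at 2 h were 7.40, 7.43 and 7.45 with INS37217 and 7.01, 7.22 and 7.25 with saline. INS37217 was the higher one at both times, by 1.17 at 24 h and 0.27 at 2 h, and the interaction was 0.90 (SE 0.14, adjusted p = 0.00399).

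Cfb, complement factor B of the alternative pathway, was likewise higher with INS37217 at both times. It stood at 7.37, 7.92 and 7.64 with INS37217 and 6.37, 6.17 and 6.40 with saline at 24 h, and at 6.09, 6.07 and 6.28 with INS37217 and 6.03, 5.84 and 5.75 with saline at 2 h. The arrays of the treatments were apart at both times, and the interaction was 1.06 (SE 0.18, adjusted p = 0.00879). It was the 1 gene to pass among 13 complement genes, whose median was 0.30, against 0.549% of all genes with a positive interaction. Among 28 chemokines and cytokines 1 passed in each direction, against 0.549% positive and 0.307% negative of all genes. Ccl12, a monocyte chemokine, had 0.86 and passed in 4 of the 12 fits without 1 array, those without replicate 1 of INS37217 at 24 h or 2 h, saline 24 h replicate 3 or saline 2 h replicate 2. Arg1, an enzyme of wound macrophages, had 1.11 with an SE of 0.32 and did not pass (adjusted p = 0.139).

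Socs3 and Cebpb, both induced by cytokines that act through gp130 and STAT3, had positive interactions with their larger part at 24 h. Socs3, the feedback inhibitor of that pathway, was at 9.08, 9.83 and 9.82 with INS37217 and 8.52, 8.99 and 8.81 with saline at 24 h. It was at 9.32, 9.76 and 9.73 with INS37217 and 9.34, 9.84 and 9.72 with saline at 2 h. The 24 h groups were apart and the 2 h groups overlapped. The interaction was 0.83 (SE 0.14, adjusted p = 0.00615) at this probe set, with 0.71 and 0.57 at 2 others that did not pass. Cebpb, a transcription factor of acute inflammation, was at 8.29, 7.79 and 7.80 with INS37217 and 7.68, 6.98 and 7.19 with saline at 24 h, with overlapping groups at 2 h. The interaction of Cebpb was 0.90 (SE 0.13, adjusted p = 0.00274), and its dimmer probe set, at 0.54, did not pass. Socs3 was the 1 gene to pass of 17 in the gp130 list, whose median was -0.10, against 0.549% of all genes.

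**Figure D3:**
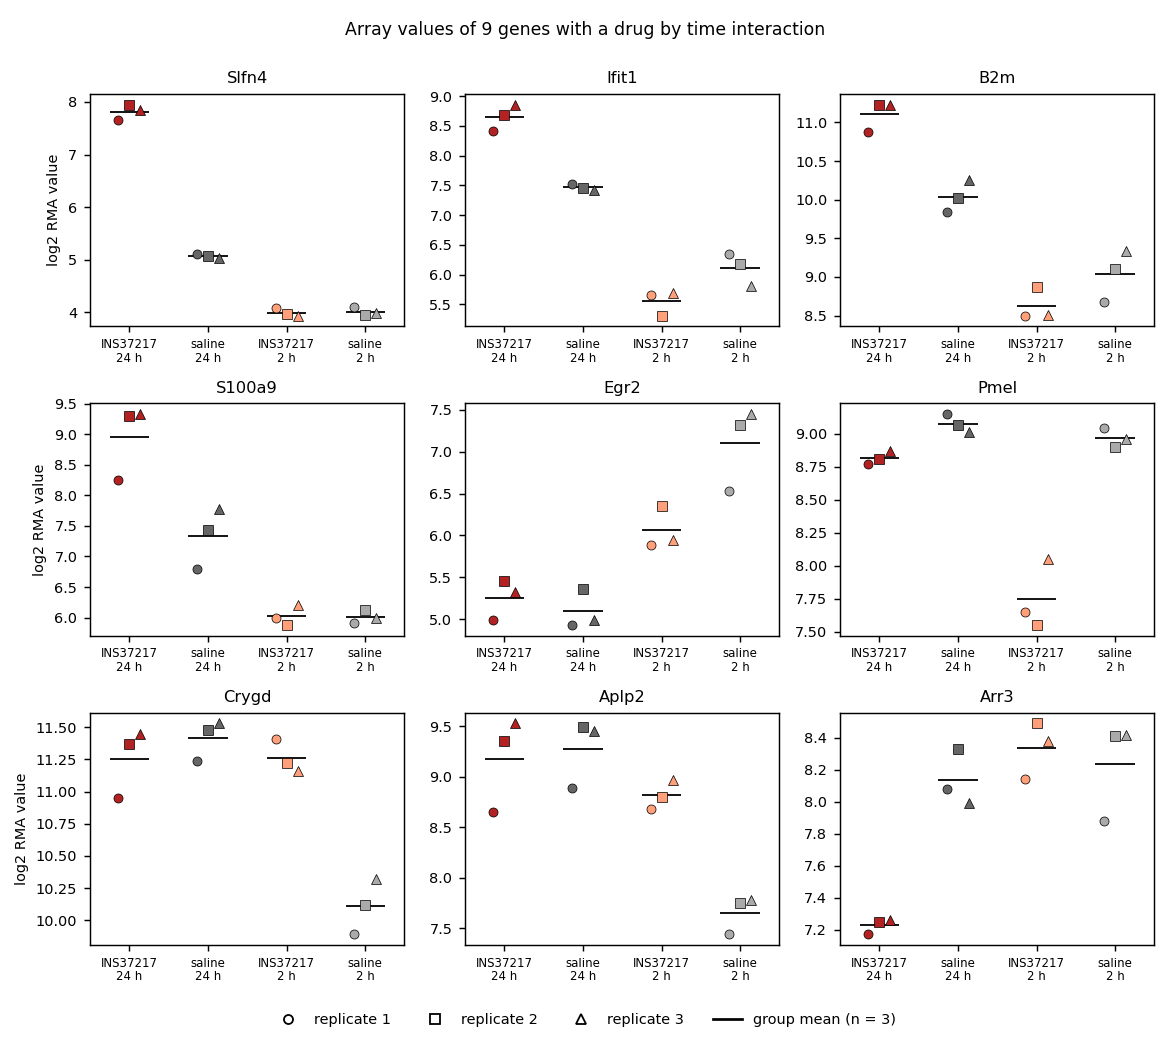
The log2 RMA value of 9 genes with an interaction is plotted for each of the 12 arrays by group, with a marker for each replicate number and a line at the group mean (n = 3). Slfn4, Ifit1, B2m and S100a9 are highest on the INS37217 24 h arrays, Egr2 and Pmel are lower with INS37217 at 2 h, Crygd and Aplp2 are lowest on the saline 2 h arrays, and Arr3 is lowest on the INS37217 24 h arrays. The vertical axes differ between genes and do not start at 0.

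Of the immediate early genes with an interaction, most had the larger part at 2 h, where they were lower with INS37217. Of 37 measured, 10 passed, all positive, against 0.549% of all genes. Of the list 32 lay above 0, with a median of 0.28. The mean of the list was 7.53, 7.40 and 7.42 with INS37217 and 7.39, 7.29 and 7.32 with saline at 24 h. On the 2 h arrays it was 8.51, 8.34 and 8.36 with INS37217 and 8.65, 8.58 and 8.66 with saline. The list was thus lower at 24 h than at 2 h under both treatments. Its arrays did not overlap between treatments at either time, INS37217 being the higher one at 24 h and the lower one at 2 h. The saline 2 h arrays, on which the list was highest, are those with the larger 3′ minus 5′ signal of beta-actin given above, and its part in this result was not tested. The 10 genes were Nr4a1, Egr2, Ccn1, Junb, Ccn2, Btg2, Egr1, Fos, Klf4 and Zfp36. None passed without the block. Leaving out 1 array gave 6 without INS37217 24 h replicate 1, INS37217 2 h replicate 2 or saline 2 h replicate 3, and 5 without INS37217 24 h replicate 2, with 7 to 10 otherwise.

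Egr2, a zinc finger factor induced by growth factors and activity, was at 4.99, 5.46 and 5.32 with INS37217 and 4.93, 5.36 and 4.99 with saline at 24 h. Its 2 h values were 5.89, 6.35 and 5.95 with INS37217 and 6.53, 7.32 and 7.45 with saline. Only the 2 h groups were apart, and the interaction was 1.20 (SE 0.19, adjusted p = 0.00437). Nr4a1, an orphan nuclear receptor of the same response, was at 9.38, 8.66 and 8.83 with INS37217 and 9.43, 8.81 and 8.92 with saline at 24 h, and at 10.72, 10.20 and 10.23 with INS37217 and 11.61, 11.22 and 11.41 with saline at 2 h. It too was apart only at 2 h, with an interaction of 0.93 (SE 0.13, adjusted p = 0.0024). Ccn1, a matricellular target of YAP and serum response factor, had 0.90 with a 2 h part of -0.74, and 1.07 at its second probe set. Fosb had 0.84 and did not pass (adjusted p = 0.223).

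Melanosome genes were lower with INS37217 at 2 h as a list too. Of 15 measured, 4 passed, all positive, against 0.549% of all genes, and the median was 0.26. The list means overlapped at 24 h, at 7.18 to 7.24 with INS37217 and 7.20 to 7.30 with saline. They were apart at 2 h, at 6.78, 6.57 and 6.76 with INS37217 and 7.13, 7.04 and 7.05 with saline. Pmel, which forms the fibrils on which melanin is laid, was at 8.77, 8.81 and 8.87 with INS37217 and 9.15, 9.07 and 9.01 with saline at 24 h. Its 2 h values were 7.65, 7.55 and 8.05 with INS37217 and 9.04, 8.90 and 8.96 with saline. INS37217 was below saline without overlap at both times, with differences of -0.26 at 24 h and -1.22 at 2 h, and the interaction was 0.96 (SE 0.15, adjusted p = 0.00549). Tyrp1 and Dct, enzymes of melanin synthesis, had 0.95 and 0.67, and Gpnmb was the other gene to pass. Dct was lost in 5 of the 12 fits without 1 array, those without INS37217 24 h or 2 h replicate 2, saline 24 h replicate 3, or saline 2 h replicate 2 or 3. The count of the list was 2 without INS37217 24 h replicate 2, saline 24 h replicate 3, INS37217 2 h replicate 2 or saline 2 h replicate 2 or 3, and 0 without the block.

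The pigment epithelium genes outside the melanosome list lay mostly on the other side of 0. Of 16 genes of the pigment epithelium and visual cycle, 1 had a negative interaction, against 0.307% of all genes, and none a positive one. The median was -0.11, with 14 genes below 0. The 1 gene was Rpe65, the isomerase of the visual cycle, at -0.62 (adjusted p = 0.0296), and it passed in 3 of the 12 fits without 1 array, those without saline 24 h replicate 1, INS37217 2 h replicate 2 or saline 2 h replicate 1. Its arrays stood at 7.45, 7.50 and 7.60 with INS37217 and 7.72, 7.77 and 7.98 with saline at 24 h, and at 8.30, 8.17 and 8.40 with INS37217 and 8.04, 7.95 and 7.93 with saline at 2 h. The groups were apart at both times, with INS37217 lower at 24 h and higher at 2 h.

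Dcn, the collagen-binding proteoglycan decorin, had the largest positive interaction with its larger part at 2 h. It was at 7.38, 8.11 and 8.09 with INS37217 and 7.34, 7.89 and 8.01 with saline at 24 h, and at 6.46, 6.55 and 7.02 with INS37217 and 7.79, 7.74 and 7.91 with saline at 2 h. The 24 h groups overlapped, the 2 h groups were apart, and the interaction was 1.25 (SE 0.19, adjusted p = 0.00331). Dcn was the 1 gene to pass of 19 fibroblast and stroma markers, whose median was 0.03. For this list and those of Acta2 and Aldh18a1 below, the share of all genes with a positive interaction was 0.549%. Acta2, smooth muscle actin, was the 1 of 22 endothelium and pericyte markers to pass, at 0.52, and it was lost in each of the 12 fits without 1 array. A dimmer probe set of Acta2 stood at -0.20 and did not pass. Aldh18a1, an enzyme of proline synthesis and the 1 gene of 23 in the integrated stress list to pass, had 0.83, with 0.23 to 0.50 at 4 other probe sets that did not pass. Alas2, the heme enzyme of red cell precursors, was at lower values with INS37217 at both times, the differences being -0.81 at 24 h and -1.37 at 2 h, and its interaction of 0.56 did not pass (adjusted p = 0.154).

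Lens genes were a group with many negative interactions. Of 19 lens genes measured, 10 passed, all negative, where 0.307% of all genes had a negative interaction by 1 probe set each. All 19 lay below 0, with a median of -0.69, and the median INS37217 minus saline difference was -0.06 at 24 h and 0.58 at 2 h. The mean of the list was 10.48, 10.57 and 10.62 with INS37217 and 10.60, 10.54 and 10.67 with saline at 24 h. On the 2 h arrays it was 10.50, 10.54 and 10.59 with INS37217 and 9.88, 9.93 and 10.02 with saline. The 3 saline 2 h arrays were thus the low ones, and the other 9 lay between 10.48 and 10.67. The list was drawn up as markers of the lens, and whether these transcripts came from lens or retina was not tested. The same 3 arrays had the larger 3′ minus 5′ signal of beta-actin given above, and its part in this result was not tested. The 10 genes were Cryga, Crygd, Bfsp1, Crygb, Crybb3, Crygf, Cryba4, Cryba2, Crybb1 and Crygn. Between 7 and 10 passed when 1 array was left out, and Cryga alone passed without the block.

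Crygd, a crystallin of lens fibres, was at 10.95, 11.37 and 11.45 with INS37217 and 11.24, 11.48 and 11.53 with saline at 24 h. On the 2 h arrays it was at 11.41, 11.22 and 11.16 with INS37217 and 9.89, 10.12 and 10.32 with saline. The 2 h groups were apart, the 24 h groups overlapped, and the interaction was -1.31 (SE 0.17, adjusted p = 0.00193). Cryga, of the same family, was at 7.86, 8.01 and 8.14 with INS37217 and 8.25, 8.23 and 8.46 with saline at 24 h, and at 7.89, 7.94 and 8.03 with INS37217 and 7.18, 7.09 and 6.87 with saline at 2 h. Its groups were apart at both times, with INS37217 lower at 24 h and higher at 2 h, and the interaction was -1.22 (SE 0.15, adjusted p = 0.00134). Bfsp1, a beaded filament protein found in lens fibres, had -1.17 and Crygb -1.06. Crystallin genes are close in sequence, so a probe set can bind a related transcript. The alpha crystallins Cryaa and Cryab had -0.24 and -0.33 and did not pass.

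**Figure D4:**
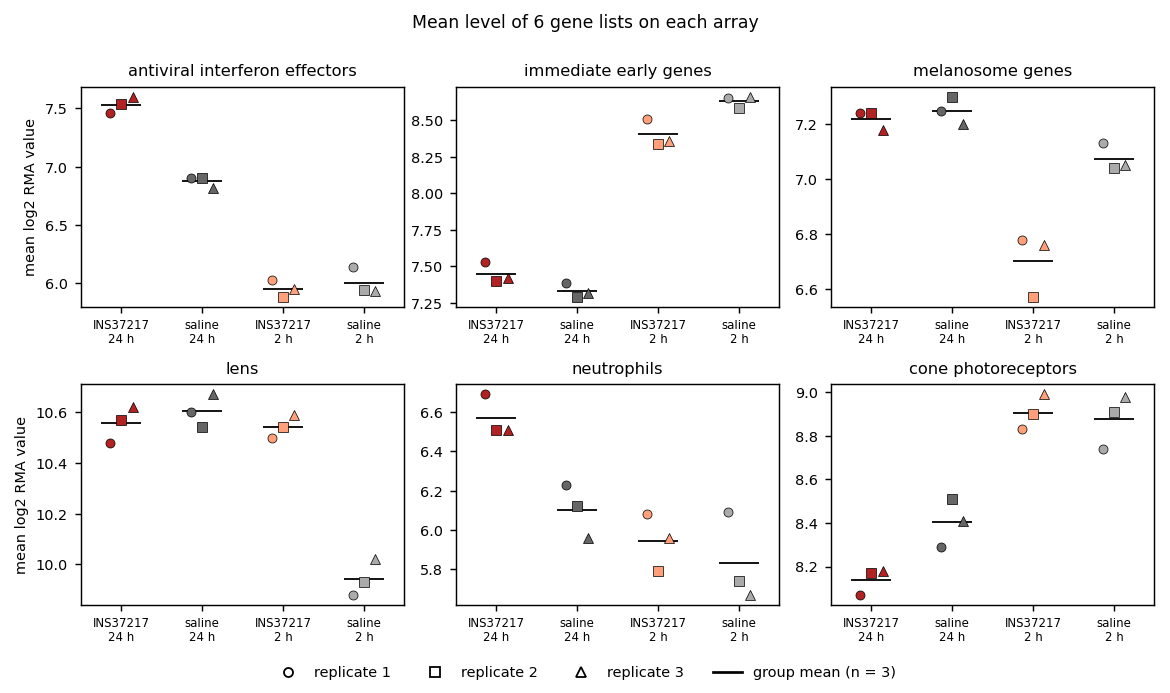
The mean log2 RMA value of 6 gene lists is plotted for each of the 12 arrays by group, with a marker for each replicate number and a line at the group mean (n = 3). The interferon and neutrophil lists are highest on the INS37217 24 h arrays, the immediate early list is highest on the saline 2 h arrays, the melanosome list is lowest on the INS37217 2 h arrays, the lens list is lowest on the saline 2 h arrays and the cone list is lowest on the INS37217 24 h arrays.

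Stress genes with negative interactions were higher with INS37217 at 2 h. Hspa1b, an inducible HSP70, was at 8.11, 7.92 and 8.12 with INS37217 and 8.23, 7.94 and 8.01 with saline at 24 h, and at 8.74, 9.07 and 8.85 with INS37217 and 7.76, 7.94 and 7.97 with saline at 2 h. The 24 h groups overlapped and the 2 h groups were apart. The interaction was -1.01 (SE 0.16, adjusted p = 0.00528) at this probe set, -0.87 at its brightest one, which passed, and -0.73 at another, which did not. Hspa1a, its near-identical neighbour whose transcripts probe sets may not tell apart, had -0.72 and passed in 2 of the 12 fits without 1 array, those without saline 24 h replicate 2 or INS37217 2 h replicate 3. They were the 2 genes to pass of 14 heat shock chaperones, against 0.307% of all genes with a negative interaction. That list split evenly around 0 (7 above and 7 below). Srxn1, the sulfiredoxin that repairs peroxiredoxins, was at 8.96, 8.73 and 8.94 with INS37217 and 7.98, 8.15 and 7.72 with saline at 2 h, with an interaction of -1.0 (SE 0.17, adjusted p = 0.00638). A second probe set of Srxn1 passed at -0.93, and none of 14 NRF2 targets and metallothioneins passed by the brightest one. Icam1, the leukocyte adhesion molecule, had -0.65, and Agt, angiotensinogen of glia, -0.63. Icam1 passed in 3 of the 12 fits without 1 array, those without saline 24 h replicate 1, INS37217 2 h replicate 3 or saline 2 h replicate 3. Agt passed in 2, those without saline 24 h replicate 3 or INS37217 2 h replicate 1.

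Most other negative interactions came from probe sets that were lowest on the saline 2 h arrays. Of the 164 negative probe sets, 133 had their lowest mean of all 6 groups of the series in saline at 2 h (132 without the 7 d saline array whose source name gives 2 h), against 20.1% of all probe sets. Saline at 2 h enters the interaction with a plus sign, so a low mean there favours a negative interaction. The selection thus fixes part of this share, which is not a separate result. Top2b, the topoisomerase of postmitotic neurons, was at 5.80, 7.48 and 7.52 with INS37217 and 5.97, 7.52 and 7.33 with saline at 24 h. At 2 h it was at 5.62, 6.60 and 6.74 with INS37217 and 4.44, 5.03 and 5.54 with saline. Each saline 2 h array was the lowest of its replicate number, and the interaction was -1.32 (SE 0.22, adjusted p = 0.00708). Aplp2, a relative of the amyloid precursor protein, was at 8.65, 9.36 and 9.53 with INS37217 and 8.89, 9.49 and 9.45 with saline at 24 h, and at 8.68, 8.80 and 8.97 with INS37217 and 7.44, 7.75 and 7.78 with saline at 2 h. Its saline 2 h arrays lay below all other 9, and the interaction was -1.26 (SE 0.16, adjusted p = 0.00181).

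Other probe sets of these genes mostly did not show it. For Top2b the 2 brighter probe sets had 0.09 and -0.50, neither past the threshold. For Aplp2 the brightest had 0.04 and another bright one had -0.62, which passed (adjusted p = 0.0378). Atp6v0a1, a subunit of the proton pump of vesicles, had -1.18 at 1 probe set and -0.05 at its brightest, and Itgav, the integrin alpha V chain, had -0.98 at 1 probe set and -0.12 at its brightest. Of 139 genes with a negative interaction 115 had more than 1 probe set, and 112 of these had at least 1 that did not pass. Those 223 probe sets had a median of -0.12, and 157 of them lay below 0. Only 14 of the 115 genes passed at their brightest probe set, while 24 of 37 such genes with a positive interaction did. Means over all probe sets of a gene gave -0.35 for Aplp2, -0.39 for Atp6v0a1 and -0.34 for Itgav, none past the threshold. The saline 2 h arrays that were low for these probe sets are those with the larger 3′ minus 5′ signal of beta-actin given above, and its part in the result was not tested.

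Stom and Pfkfb2 had parts of both signs. Stom, the membrane protein stomatin, was at 6.54, 7.67 and 7.53 with INS37217 and 7.24, 8.13 and 7.92 with saline at 24 h, and at 7.15, 7.43 and 7.79 with INS37217 and 6.32, 6.80 and 7.02 with saline at 2 h. Each INS37217 array was below the saline array of its number at 24 h and above it at 2 h. The interaction was -1.26 (SE 0.19, adjusted p = 0.00308), with -1.0 at a second probe set that passed and -0.25 at its brightest, which did not. Pfkfb2, which makes the activator of phosphofructokinase, was at 5.63, 7.14 and 7.41 with INS37217 and 6.55, 7.61 and 7.88 with saline at 24 h. On the 2 h arrays it was at 6.48, 7.23 and 7.37 with INS37217 and 5.42, 6.71 and 6.77 with saline. Here too the sign turned within every replicate number although the groups overlapped at both times, and the interaction was -1.35 (SE 0.19, adjusted p = 0.00226). Its other probe sets had -0.62 and -0.30 and did not pass. Mbd1, a reader of methylated DNA, had -1.10, with negative values at all 5 of its probe sets, 4 of them past the threshold. Pnn, a splicing factor, had -1.03 and passed in 5 of the 12 fits without 1 array, those without INS37217 24 h replicate 2, saline 24 h replicate 1, INS37217 2 h replicate 3 or saline 2 h replicate 1 or 3. The brightest probe set of Pnn had -0.25 and another -0.09, neither past the threshold.

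Only 12 negative probe sets had their larger part at 24 h, and cone arrestin was among them. Arr3, which shuts off cone opsins, was at 7.17, 7.25 and 7.26 with INS37217 and 8.08, 8.33 and 7.99 with saline at 24 h. At 2 h it was at 8.14, 8.49 and 8.38 with INS37217 and 7.88, 8.41 and 8.42 with saline. The INS37217 24 h arrays lay below all other 9, the remaining groups overlapped, and the interaction was -1.01 (SE 0.16, adjusted p = 0.00437), with -0.84 at its brighter probe set, which also passed. Of 12 cone genes it was the 1 to pass, against 0.307% of all genes with a negative interaction. In the list 11 lay below 0, with a median of -0.28. Opn1sw, the short-wave cone opsin, had -0.64 (adjusted p = 0.0744), with parts of -0.62 at 24 h and 0.01 at 2 h. The mean of the cone list was 8.07, 8.17 and 8.18 with INS37217 and 8.29, 8.51 and 8.41 with saline at 24 h, and 8.83 to 8.99 with INS37217 and 8.74 to 8.98 with saline at 2 h.

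By the medians of their list, Mueller glia markers had the same split of parts without a call. Of 17 measured none passed (7 at an unadjusted p under 0.05), 15 lay below 0, and the median was -0.21, with -0.16 at 24 h and 0.01 at 2 h. Rlbp1, which carries retinaldehyde, and Abca8a, a transporter of these cells, had -0.54 each (adjusted p = 0.0933 and 0.059). Dkk3, also of the list, had -0.56 (adjusted p = 0.104) with its larger part at 2 h. Its parts were -0.24 at 24 h and 0.32 at 2 h. Of 24 rod genes none passed (4 at an unadjusted p under 0.05), with a median of -0.11. For comparison, 935 of all 12393 genes had an unadjusted p under 0.05 in limma by 1 probe set each. Reactive glia genes had 2 positive and 1 negative interactions among 22, against 0.549% positive and 0.307% negative of all genes. Their median was -0.02. Gfap, the filament of reactive glia, had -0.18 (SE 0.13, adjusted p = 0.752) and was higher at 24 h than at 2 h under both treatments, by 0.99 with INS37217 and 1.17 with saline. The negative one was Edn2, endothelin 2 of stressed photoreceptors, at -0.65, which passed in 3 of the 12 fits without 1 array, those without replicate 1 of INS37217 at 24 h or 2 h or without saline 2 h replicate 3.

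The receptor of the drug and the machinery of fluid transport showed no called interaction apart from Nt5e. P2ry2 was at 5.38, 5.47 and 5.57 with INS37217 and 5.33, 5.43 and 5.31 with saline at 24 h, and at 5.30, 5.45 and 5.47 with INS37217 and 5.36, 5.24 and 5.30 with saline at 2 h. The treatments overlapped at both times, and the interaction was 0.01 (SE 0.13, adjusted p = 0.993). Of 17 P2 receptors and ectonucleotidases 1 passed, against 0.307% of all genes with a negative interaction. It was Nt5e, the enzyme CD73 that makes adenosine, at -0.57. Nt5e passed in 1 of the 12 fits without 1 array, that without INS37217 2 h replicate 2. Of 26 water and ion transport genes none passed (1 at an unadjusted p under 0.05), with a median of -0.08. Aqp1 and Aqp4, the water channels of photoreceptors and of Mueller glia, had -0.14 and -0.21. Fgf2, a survival factor of injured retina, was higher at 24 h by 1.89 with INS37217 and 1.77 with saline, and its interaction was 0.12 with an SE of 0.36. No gene passed in the lists of cell cycle, ribosomal proteins, respiratory chain, cholesterol synthesis, glycolysis, caspases and BCL2, bipolar, amacrine or ganglion cells, lymphocytes, red blood cells, muscle or cornea. These lists had between 0 and 3 genes each at an unadjusted p under 0.05, against 935 of all 12393 genes.

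**Figure D5:**
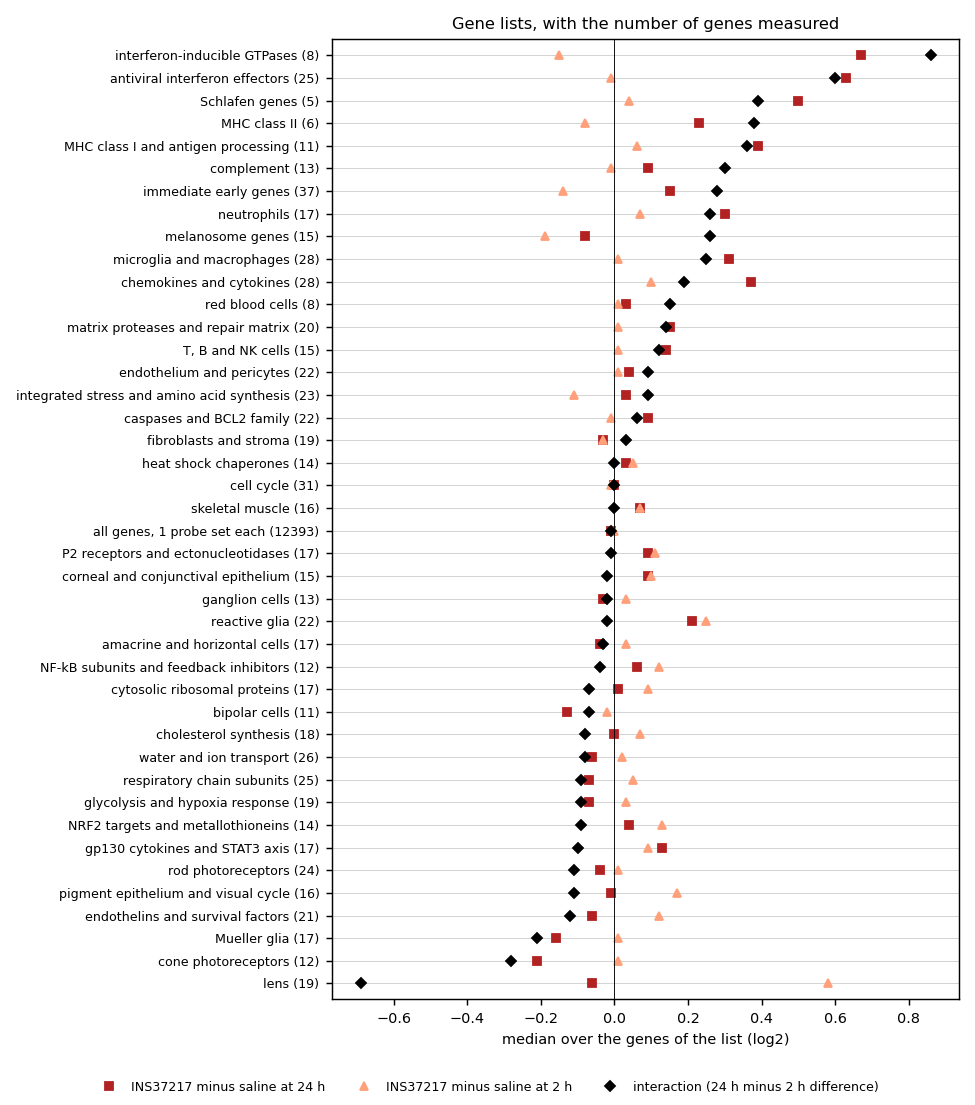
For each gene list, with the number of genes measured in brackets, the median over its genes of the INS37217 minus saline difference at 24 h (squares), of that at 2 h (triangles) and of the interaction (diamonds) is plotted on a log2 scale. The interferon-inducible GTPases (0.86) and antiviral effectors (0.60) stand at the top and the lens genes (-0.69) at the bottom, while all 12393 genes stand at -0.01.

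The 6 arrays at 7 d were not used by the interaction and show the same probe sets later. Of the 100 positive probe sets, 82 were higher and 17 lower with INS37217 than with saline at 7 d, with a median difference of 0.18, where 42.4% of all probe sets were higher. Slfn4 averaged 4.01 with INS37217 and 3.86 with saline, near its level at 2 h. B2m averaged 10.89 with INS37217 and 10.26 with saline, and S100a9 5.26 with INS37217 and 5.08 with saline. Of the 164 negative probe sets, 75 were higher and 88 lower with INS37217, with a median difference of -0.01. Crygd averaged 11.90 with INS37217 and 11.81 with saline, and Arr3 8.0 with INS37217 and 8.02 with saline. The source name of 1 of the 3 saline arrays at 7 d gives 2 h, and it was kept at 7 d as titled.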

How the data were processed

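The authors labelled total RNA for Affymetrix arrays and, per the submitters' processing notes, summarized the probes by RMA. The deposited values are log2, which their range of 2.83 to 14.15 and array medians of 6.67 to 6.76 also fit, and were not normalized again. No version of RMA is recorded in the labels. Of 22690 probe sets 64 controls were left out. With the platform annotation and a RefSeq gene table (GRCm38.p6) 20380 probe sets had 1 gene, 691 several and 1555 none. Promoter windows are RefSeq's.

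The interaction of the 4 group means, with the replicate number as a fixed block, was tested with lmFit and eBayes of limma 3.58.1 in R 4.3.3 and adjusted by Benjamini and Hochberg over 22626 probe sets. Every adjusted p in the text comes from limma. Residual degrees of freedom were 6 and prior ones 9.7. The parts of the interaction come from the same fit and were not tested. The number of arrays limits the precision. The step was also tested on simulated data.

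Replicate numbers were taken to pair arrays across groups, and the labels do not say what a number stands for. After group means were removed, the 18 pairs with the same number correlated at 0.426 to 0.854. Pairs of numbers 2 and 3 correlated at 0.397 to 0.591. Within number 2 the pairs correlated at 0.426 to 0.691, and within number 3 at 0.427 to 0.659. Pairs of number 1 with number 2 or 3 lay between -0.743 and -0.501. The correlations thus set replicate 1 apart and hardly separate numbers 2 and 3.

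A list counts a gene by its brightest probe set. Genes named were up to 15 per direction with the largest interaction that passed, up to 4 per list with the largest interaction, the members of a list that passed, and P2ry2, Gfap, Aqp1, Aqp4 and Fgf2. Oasl1 and Cryaa were named after their values were seen. The interaction, lists and genes were chosen with earlier results of these data known.

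The alternatives were no block, all 18 arrays, 1 value per replicate number, quantile normalization or equal medians, only brighter probe sets, a floor on dim values, trend and robust eBayes, array weights, gene means, and omission of each array or replicate number. Counts for 5 lists under each were added after the data were seen.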

Additional observations from a re-analysis of the deposited data

Results flagged for a closer look

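For the results here the INS37217 minus saline difference was not the same at 24 h and at 2 h by the interaction term itself: 264 probe sets in all, 100 positive and 164 negative. Interferon and antigen presentation genes with a positive interaction were Slfn4 (2.76), Ifit1 (1.74), Rsad2 (1.62), Oasl2 (1.59), B2m (1.48), Iigp1 (1.43), Ifi44l (1.37), Ifit3 (1.27), Trim30a (1.23), Gbp3 (0.96), Gbp7 (0.91) and Slfn1 (0.78). Among white cell and inflammation genes they were S100a9 (1.60), S100a8 (1.41), Mmp3 (1.38), Plac8 (1.30), Cfb (1.06), Ptprc (1.04), Ms4a6d (1.04), Chil1 (0.90), Cebpb (0.90), Ccl12 (0.86), Pf4 (0.85), Socs3 (0.83) and Nfkbiz (0.62). Immediate early, melanosome and other genes with a positive interaction were Dcn (1.25), Egr2 (1.20), Pmel (0.96), Tyrp1 (0.95), Nr4a1 (0.93), Ccn1 (0.90), Aldh18a1 (0.83), Dct (0.67) and Acta2 (0.52).

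Negative interactions of lens genes were those of Crygd (-1.31), Cryga (-1.22), Bfsp1 (-1.17) and Crygb (-1.06). The photoreceptor, pigment epithelium and signalling genes were Arr3 (-1.01), Edn2 (-0.65), Icam1 (-0.65), Agt (-0.63), Rpe65 (-0.62) and Nt5e (-0.57). Stress and other genes were Pfkfb2 (-1.35), Top2b (-1.32), Stom (-1.26), Aplp2 (-1.26), Atp6v0a1 (-1.18), Mbd1 (-1.10), Pnn (-1.03), Hspa1b (-1.01), Srxn1 (-1.0), Itgav (-0.98) and Hspa1a (-0.72).

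The groups hold 3 arrays, so no array was tested for standing apart within its group. Nfkbiz, from the list of NF-kB subunits and feedback inhibitors, passed in 2 of the 12 fits that left out 1 array. These were the fits without replicate 1 of saline at 24 h or at 2 h. A dimmer probe set of Nfkbiz had 0.16 and did not pass.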

How the results depend on the processing

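The count of 264 probe sets (100 positive and 164 negative) was within 1.5 times of itself with all 18 arrays, quantile normalization, equal medians, brighter probe sets only, trend and robust eBayes, and array weights, at 206 to 328. With no replicate block 8 passed, 6 positive and 2 negative. That fit leaves any differences between replicate numbers in its error, and the labels do not say that the numbers pair arrays. A single interaction value per replicate number gave 495, 180 positive and 315 negative, which include all 264. Low values raised to the 25th percentile (5.28) gave 44, 12 positive and 32 negative, and the cause was not tested. Means over the probe sets of a gene gave 122 of 12393 genes, 70 positive and 52 negative. Leaving out 1 array or 1 replicate number gave 5 to 242 probe sets, 4 to 95 positive and 1 to 159 negative, with 118 to 242, 53 to 95 and 65 to 159 for single arrays. Omission of a number leaves fewer arrays and degrees of freedom. Of the 67 genes followed, P2ry2 and Fgf2 changed sign, neither of them past the threshold in any alternative: P2ry2 stood at -0.02 after quantile normalization and with array weights and at -0.06 to 0.10 in the omissions, and Fgf2 at -0.03 with array weights and at -0.22 to 0.47 in the omissions. Of the 67, Arg1, Irgm1, Fosb, Alas2, Gfap, P2ry2, Aqp1, Aqp4, Fgf2, Opn1sw, Rlbp1 and Abca8a did not pass in the reported fit. They thus had no call to lose. Of the rest, 49 lost the call without the block and 49 with low values raised to the 25th percentile. Without replicate 2 it was 50, and without replicate 3 it was 44, against at most 16 in each other alternative. Values near the background of an array are compressed by RMA, which limits dim probe sets.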
